A study of Homo sapiens with 12 samples.

Results

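The genes described here are 40 that build and guard the secretory pathway of the endoplasmic reticulum (ER), chosen by name as its chaperones, disulfide isomerases, degradation factors, stress sensors, translocation subunits and transport factors. The choice was made with earlier results of these data known. Shares of members set beside shares of all genes therefore describe the list and are no test. All 40 are among the 55882 gene symbols of the deposited count table. Of these 40, 39 were among the 14799 genes with enough reads to test. The exception was CREB3L1, an ER-anchored transcription factor with 0 to 10 counts per library, which is given by its counts alone. The cells were T47D, an established line of estrogen receptor-positive human breast cancer, either control cells (labelled wild type or normal) or cells carrying ectopic HOXB13, a homeobox transcription factor best known from the prostate. Each genotype was held for 72 h in phenol-free medium with 10% charcoal-stripped serum, which lacks most steroids, and was then given ethanol vehicle or 2 nM estradiol for 24 h. This made 4 groups of 3 libraries, a vehicle group and an estradiol group for each genotype. The labels do not say whether the control cells carried an empty vector, whether the HOXB13 cells were 1 clone or a pool, or whether replicates were separate cultures. The p-values therefore rest on library-to-library spread alone, part of which may be technical.

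Proteins destined for the membrane or for secretion enter the ER through the SEC61 channel, fold there with the help of chaperones such as BiP (HSPA5), and leave in COPII-coated vesicles. Proteins that fail to fold are drawn back to the cytosol and degraded (ER-associated degradation). When unfolded protein builds up, the sensors IRE1 (ERN1), PERK (EIF2AK3) and ATF6 start the unfolded protein response: IRE1 splices the mRNA of XBP1 into the form that encodes an active factor, ATF6 is cut to release one, and PERK slows translation and favours ATF4. XBP1 and ATF6 then raise many of the chaperone and degradation genes through short promoter elements. In breast epithelium XBP1 is also a known target of the estrogen receptor. A count per gene does not separate spliced from unspliced XBP1 mRNA, and says nothing of protein or of cleaved ATF6.

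The known promoter elements of this response stand in some of the genes, and are shown because 11 of the 35 members matched to a promoter (31.4%) held an ERSE or ERSE-II, defined below, against 0.161% of all genes. RefSeq promoter windows (GRCh38.p14, from 250 bases before to 50 after the start site) were matched by symbol, and PDIA3, DERL1, DERL3, SEC24D and KDELR2 had no entry. Both strands were searched. The ER stress response element (ERSE: CCAAT, any 9 bases, CCACG) lay in the windows of 8 members, CALR, CANX, CRELD2, HSP90B1, HSPA5, PDIA6, SERP1 and XBP1. That is 22.9% of the matched members, against 0.0916% of the 27305 genes in the table. ERSE-II (ATTGG, any 1 base, CCACG) lay in those of HERPUD1, HYOU1 and SDF2L1, 8.57% of the members against 0.0696% of all genes. The unfolded protein response element bound by XBP1 (UPRE: TGAC followed directly by GTGG) lay in those of HYOU1, KDELR3 and SSR3, 8.57% of the members against 0.927% of all genes. An estrogen response element (GGTCA, any 3 bases, TGACC) and a HOXB13 motif (CCAA followed directly by TAAA) were in no member window, and were in 0.0732% and 1.16% of all genes. The elements are known ones of this response, and the members were chosen by name from its genes and the secretory pathway. The higher shares therefore describe the list and are no test. A match describes letters, not binding, and no match covers these windows alone.

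Stretches of 7 of these promoters follow for genes whose levels differed with estradiol in at least 1 fit, 5′ to 3′ on the strand of the gene, with the element in capitals. They are HSPA5 (chr9:125241376-125241424, minus strand), CALR (chr19:12938369-12938417, plus strand), HSP90B1 (chr12:103930201-103930354, plus strand), XBP1 (chr22:28800588-28800636, minus strand), HERPUD1 (chr16:56932010-56932050, plus strand), HYOU1 (chr11:119057259-119057408, minus strand) and SSR3 (chr3:156554144-156554181, minus strand), all in GRCh38.p14 and all upstream of the start site.
HSPA5: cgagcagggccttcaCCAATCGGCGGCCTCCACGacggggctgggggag
CALR: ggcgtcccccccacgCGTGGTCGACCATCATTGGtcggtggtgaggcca
HSP90B1: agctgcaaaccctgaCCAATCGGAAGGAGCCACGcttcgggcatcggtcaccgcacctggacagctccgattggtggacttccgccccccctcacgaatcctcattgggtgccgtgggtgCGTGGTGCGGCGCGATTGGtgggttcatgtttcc
XBP1: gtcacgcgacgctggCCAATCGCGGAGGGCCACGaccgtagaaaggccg
HERPUD1: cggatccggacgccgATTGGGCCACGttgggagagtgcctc
HYOU1: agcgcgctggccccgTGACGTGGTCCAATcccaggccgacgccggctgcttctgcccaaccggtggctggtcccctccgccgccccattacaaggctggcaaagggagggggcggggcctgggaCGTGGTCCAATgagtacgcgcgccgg
SSR3: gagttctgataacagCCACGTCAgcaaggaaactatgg
In CALR and in the second element of HSP90B1 the ERSE reads from the other strand, so that CGTGG comes first. In HYOU1 the first run of capitals holds a UPRE and an ERSE-II that overlap, and the second run is another ERSE-II. The SSR3 capitals are a UPRE read from the other strand.

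The same elements also stand in members that did not pass with estradiol in edgeR with or without the replicate block described below, shown for contrast: PDIA6 (chr2:10812838-10812886, minus strand), CRELD2 (chr22:49918539-49918587, plus strand) and SDF2L1 (chr22:21642099-21642139, plus strand).
PDIA6: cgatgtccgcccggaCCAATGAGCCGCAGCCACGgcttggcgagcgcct
CRELD2: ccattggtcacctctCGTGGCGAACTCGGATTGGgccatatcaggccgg
SDF2L1: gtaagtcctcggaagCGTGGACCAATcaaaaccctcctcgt
PDIA6 and CRELD2 carry an ERSE, and SDF2L1 an ERSE-II.

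Libraries held 17679824 to 21385996 counts, and levels are given as normalised read counts (CPM, counts scaled to a common library size). HOXB13 had 0 to 2 counts in each of the 6 control libraries and stood at 4.79 to 5.84 CPM in the 6 HOXB13 libraries. Each library thus matched the genotype in its label. The luminal epithelial markers KRT8, KRT18, KRT19, EPCAM, CDH1, ESR1, GATA3 and FOXA1 were all expressed, and summed to 18202 to 25239 CPM per library. Of 8 markers of other cell types in the table, CDH5 had 0 counts in every library, and PTPRC, PDGFRB, KRT5 and KRT14 stayed at or below 0.313 CPM. COL1A1, a fibroblast marker, was at 51.5 to 64.1 CPM, and the 8 summed to 54.0 to 65.6 CPM with overlap between all groups. GREB1, a direct estrogen receptor target, rose with estradiol in control cells (log2 fold change 1.75 ± 0.28, SE; edgeR adjusted p = 0.000741) and in HOXB13 cells (1.28 ± 0.28; adjusted p = 0.00697). The 4 libraries numbered 2 stood apart. They were the lowest of their group in all 4 groups for 13 of 39 members (33.3%, against 17.9% of all tested genes), among them DNAJC3, EDEM1, CREB3L2, EIF2AK3 and SEL1L, and the highest in all 4 groups for CREB3L4 alone (2.56%, against 16.8%). What the numbers mean is not stated. Libraries of equal number deviated together, so p-values from a fit with the number as a block are given wherever the block changes a call. Unless another fit is named, passing or not passing without the block refers to edgeR on all 12 libraries.

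Together the 40 genes took 1.19% to 1.46% of a library's counts. Their summed level was 13197 to 13270 CPM in control cells in vehicle and 11903 to 12047 CPM in estradiol. It was 13742 to 15053 CPM in HOXB13 cells in vehicle and 11906 to 12484 CPM in estradiol. The sum was thus lower in every estradiol library than in every vehicle library, in both genotypes, and 5 genes (P4HB, CALR, HSPA5, XBP1 and CANX) made up 55.3% of it in control cells in vehicle. Per kilobase of exon (GENCODE 29 lengths), the highest levels in that group were those of CALR (575.7 ± 60.3 CPM per kb, SD, n = 3), HSPA5 (395.7 ± 9.78), XBP1 (395.0 ± 69.0) and P4HB (354.2 ± 7.78). The levels of HSPA5, XBP1 and P4HB did not differ by more than the SD of XBP1. The sensors were lower, with ATF6 at 11.7 ± 0.895 (rank 26 of 40), EIF2AK3 at 4.93 ± 0.591 (rank 33) and ERN1 at 1.32 ± 0.352 CPM per kb (rank 38). Only DERL3 (0.364 ± 0.0185) and CREB3L1 (0.0703 ± 0.0288) were lower than ERN1. Each length is the union of all annotated exons of the gene, which can exceed the mRNA expressed. The annotation used for counting is not given, so levels per kilobase and their ranks are approximate. A bulk library cannot tell fewer cells of a kind from less RNA per cell.

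In control cells, estradiol lowered HSPA5, HERPUD1, SEL1L, CREB3L4 and SEC24D and raised SSR3. That is 1 member higher (2.56% of 39, against 8.65% of all tested genes) and 5 lower (12.8%, against 6.72%) by edgeR at an adjusted p under 0.05. In either direction the 6 called members are 15.4% of those tested and the background is 15.4%, so the count in either direction is at the background and is no result about the members. The log2 fold changes of the members had a median of −0.11, with 27 of 39 negative, beside a median of −0.01 over all tested genes. With the replicate block, 3 members were higher (7.69%, against 17.5% of all genes) and 14 lower (35.9%, against 16.5%), or 43.6% in either direction beside 34%. All 3 estradiol libraries lay below all 3 vehicle libraries for 13 members (33.3%, against 14.9% of all genes). They lay above them for 3 members, SSR3, XBP1 and DERL3 (7.69%, against 16.1%). Because the members were chosen with earlier results known, these shares describe the list and are no test.

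In HOXB13 cells, estradiol lowered the same 5 genes, and also CALR and SYVN1, and raised SSR3. This made 1 member higher (2.56%, against 7.22% of all genes) and 7 lower (17.9%, against 6.38%), or 20.5% in either direction beside 13.6%. The median log2 fold change was −0.18, with 30 of 39 negative, beside −0.01 over all genes. With the block, 2 members were higher (5.13%, against 15.5%) and 15 lower (38.5%, against 15%), or 43.6% in either direction beside 30.5%. The 2 genotypes share no library in these comparisons, though all 12 libraries entered 1 fit with a common estimate of the spread. The 5 members that fell in control cells are 100% of that list and 71.4% of the 7 that fell in HOXB13 cells, and SSR3 is the 1 that rose in each. With the block, 13 members were lower in both, which is 92.9% of the control list and 86.7% of the HOXB13 list. The same overlap over all called genes was not computed, so these shares are not read as particular to the members. Shares of members higher or lower are no test either, since the list was chosen with earlier results known. Of the 11 members with an ERSE or ERSE-II, 8 had a negative log2 fold change in control cells and 8 in HOXB13 cells (medians −0.16 and −0.24). Of the 23 tested members whose window held neither, 16 and 18 were negative (medians −0.11 and −0.16).

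**Figure D1:**
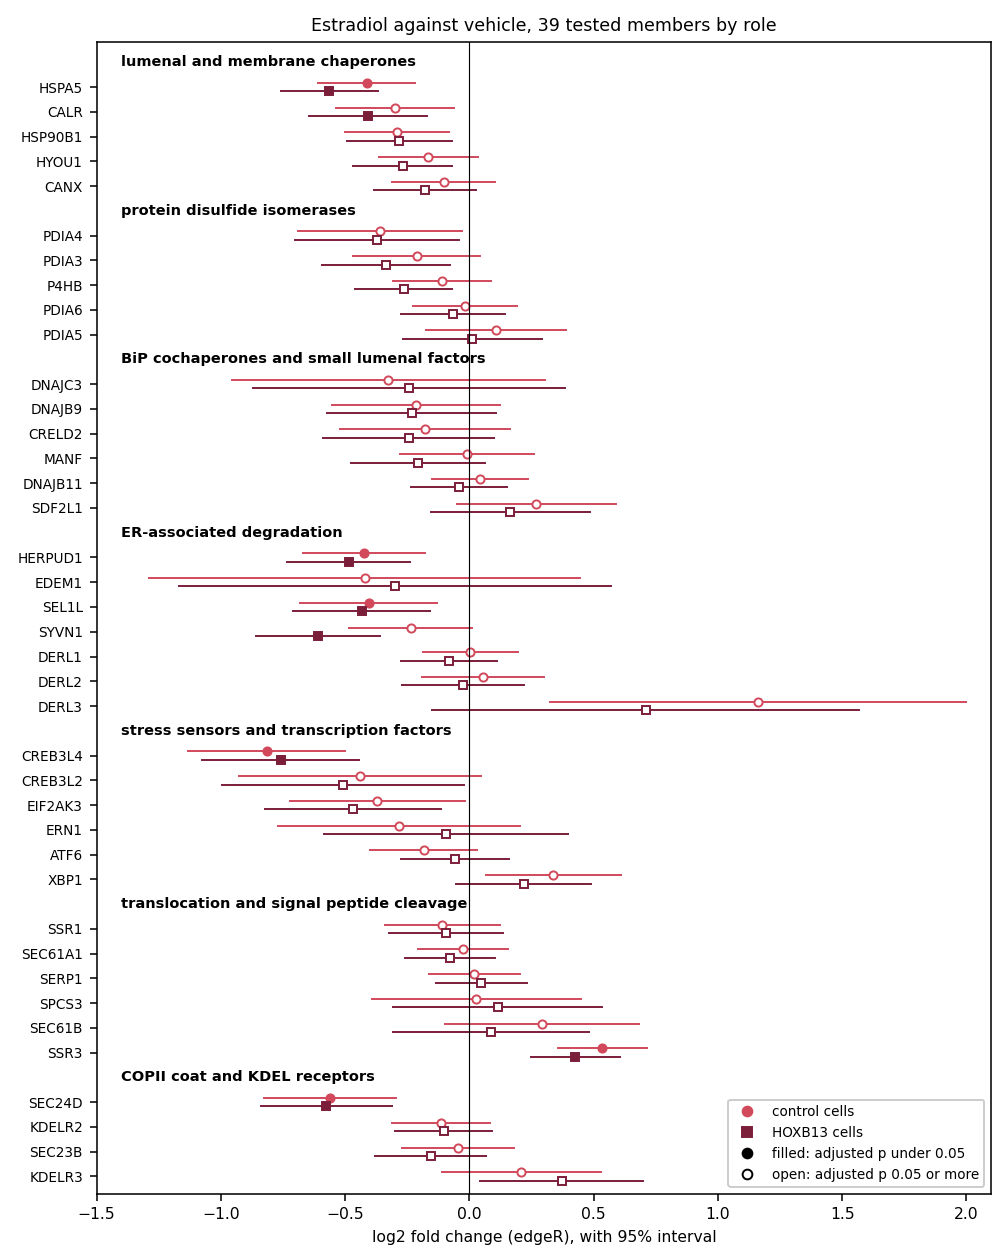
Log2 fold change of each tested member with estradiol against vehicle, with its 95% interval, in control cells (circles) and HOXB13 cells (squares), ordered by role; filled symbols passed an adjusted p of 0.05. Most symbols lie left of 0, CREB3L4 lies farthest left in both genotypes, and SSR3 is the one filled pair to the right.

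Among the lumenal and membrane chaperones the log2 fold changes were negative for all 5 genes in both genotypes, and HSPA5 changed most. HSPA5 encodes BiP, the Hsp70 of the ER lumen, which binds unfolded chains and holds the stress sensors inactive. In control cells it stood at 1505, 1555 and 1580.1 CPM in vehicle and at 1129.8, 1193 and 1160.2 CPM in estradiol. HOXB13 cells had 1849, 1733 and 1654 CPM in vehicle and 1213, 1206 and 1126 CPM in estradiol. The groups did not overlap in either genotype. Estradiol lowered it by a log2 fold change of −0.41 ± 0.09 (SE; edgeR adjusted p = 0.00655) in control cells and of −0.56 ± 0.09 (adjusted p = 0.00101) in HOXB13 cells, that is to 1161 ± 31.8 and 1182 ± 48.3 CPM (mean ± SD, n = 3). The call held when any 1 library was left out, with adjusted p-values up to 0.0353 in control cells.

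CALR encodes calreticulin, the soluble lectin chaperone that binds newly made glycoproteins together with calcium. Its level was 1729, 1556 and 1402 CPM in control cells in vehicle and 1320.5, 1251 and 1238 CPM in estradiol. HOXB13 cells had 1922, 1687 and 1629 CPM in vehicle and 1385, 1202 and 1358 CPM in estradiol, so neither genotype showed overlap. The difference was −0.30 ± 0.11 in control cells, which missed the threshold (edgeR adjusted p = 0.0864; 0.00355 with the block), and −0.41 ± 0.11 in HOXB13 cells, which passed it (adjusted p = 0.0242). The HOXB13 call was lost without 4 of the 6 libraries, at adjusted p = 0.131 without vehicle replicate 1, 0.0523 without estradiol replicate 1, 0.0883 without estradiol replicate 2 and 0.0527 without estradiol replicate 3.

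HSP90B1 encodes GRP94, the Hsp90 of the ER. Control cells held 1141, 1005 and 1105 CPM in vehicle and 910.1, 893 and 855 CPM in estradiol, and HOXB13 cells 1223, 1101 and 1096 CPM and 997, 952 and 866 CPM. All estradiol libraries lay below the vehicle libraries of their genotype. The log2 fold changes of −0.29 ± 0.10 and −0.28 ± 0.10 did not pass without the block (edgeR adjusted p = 0.0614 and 0.0748) and passed with it (0.00255 and 0.00364) and by DESeq2. HYOU1, the ER Hsp110 that exchanges nucleotide on BiP, had 513, 441 and 474 CPM in HOXB13 cells in vehicle and 405, 375 and 405 CPM in estradiol. In control cells it had 432, 383 and 404 CPM and 363, 346 and 378 CPM. Its groups did not overlap in either genotype. In control cells HYOU1 did not pass with or without the block. In HOXB13 cells the log2 fold change of −0.27 ± 0.09 did not pass without the block (edgeR adjusted p = 0.0743) and passed with it (0.00293) and by DESeq2. CANX, the membrane-bound partner of calreticulin, did not pass in either genotype (−0.10 and −0.18).

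**Figure D2:**
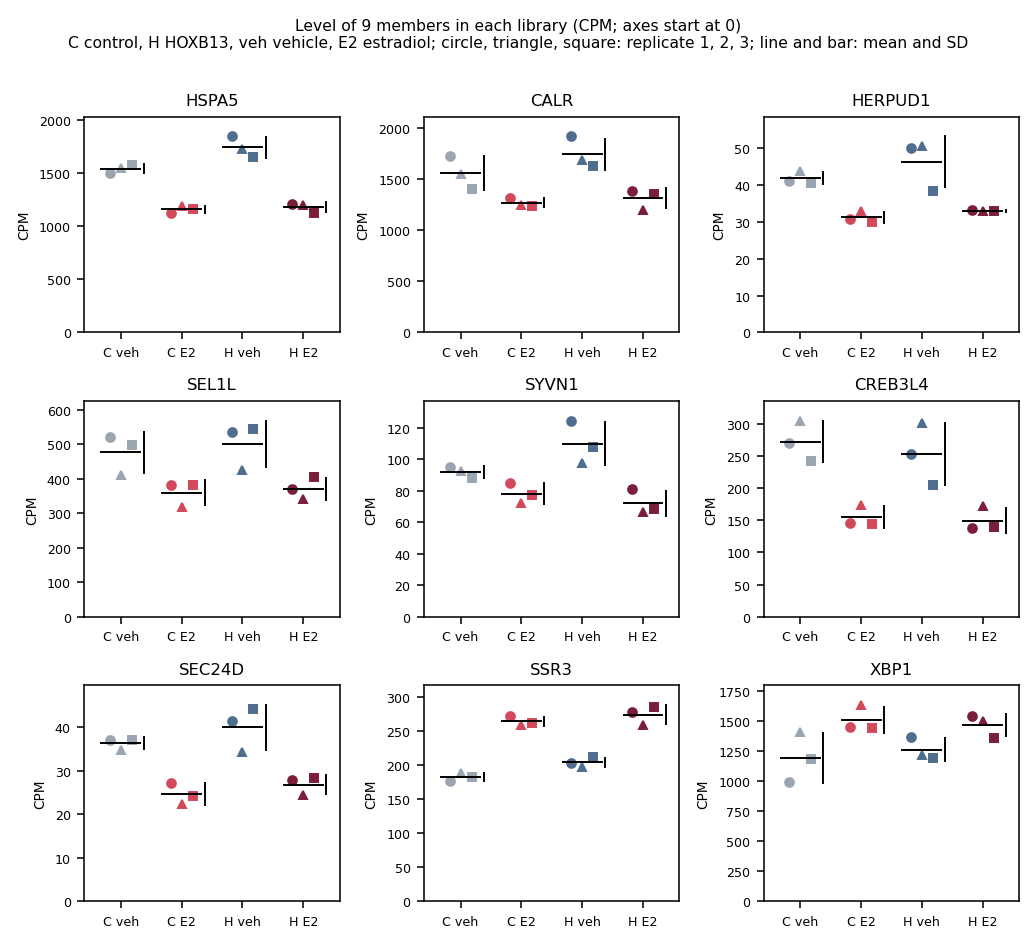
Level of 9 members in each library (CPM, linear axes from 0) in control cells (C) and HOXB13 cells (H) in vehicle (veh) and estradiol (E2); circles, triangles and squares are replicates 1, 2 and 3, the line is the mean of 3 libraries and the bar 1 SD. HSPA5, CREB3L4 and SEC24D are lower, and SSR3 higher, in every estradiol library than in every vehicle library.

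None of the 5 protein disulfide isomerases, which form and reshuffle disulfide bonds in folding proteins, passed in either genotype in edgeR on all 12 libraries without the block. PDIA4 (ERp72) stood at 214, 146 and 186 CPM in control cells in vehicle and at 153, 124 and 148 CPM in estradiol. In HOXB13 cells it was at 235, 177 and 222 CPM and 171, 139 and 180.4 CPM. The vehicle and estradiol libraries overlapped, and replicate 2 was the lowest of each group. Within equal replicate numbers the log2 ratios were all negative, at −0.48, −0.23 and −0.33 in control cells and −0.46, −0.34 and −0.30 in HOXB13 cells. With the block the edgeR adjusted p was 0.000332 and 0.000205, against 0.142 and 0.138 without it, and PDIA4 also passed in both genotypes in the fit that left out the libraries numbered 2.

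PDIA3 (ERp57), the isomerase that works with calreticulin and calnexin on glycoproteins, held 729, 779 and 679 CPM in control cells in vehicle and 616, 677 and 595 CPM in estradiol. HOXB13 cells had 822, 814 and 629 CPM and 621, 636 and 539 CPM. The groups overlapped in HOXB13 cells alone, where vehicle replicate 3 was low. Log2 fold changes of −0.21 ± 0.12 and −0.34 ± 0.12 passed with the block (edgeR adjusted p = 0.0242 and 0.000912) but not without it (0.27 and 0.081). Counts at its 2 annotated pseudogene copies came to 0.914% of the counts of the gene and the copies together. P4HB, the archetypal disulfide isomerase, was at 1951, 1979 and 1760.1 CPM in HOXB13 cells in vehicle and 1624, 1575 and 1538 CPM in estradiol. Control cells had 1852, 1926 and 1857 CPM and 1722, 1755 and 1746 CPM, again without overlap. P4HB did not pass in control cells with or without the block. In HOXB13 cells its log2 fold change of −0.26 ± 0.09 did not pass without the block (edgeR adjusted p = 0.0731) and passed with it (0.00626), by DESeq2 and by limma-voom. The log2 fold changes of PDIA6 were −0.02 and −0.06, those of PDIA5 were 0.11 and 0.01, and none passed.

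The 6 cochaperones of BiP and small lumenal factors gave no call in edgeR on all 12 libraries without the block. DNAJC3 (p58IPK), a J-domain cochaperone that also restrains PERK, had the widest spread between replicates of these 6 genes, relative to the mean. Control cells held 136, 70.7 and 139.7 CPM in vehicle and 101, 64.9 and 111 CPM in estradiol. HOXB13 cells held 146, 92.4 and 184 CPM and 122, 85.9 and 149 CPM. Replicate 2 had the lowest level in each group, so vehicle and estradiol libraries overlapped. Within equal numbers the log2 ratios were −0.43, −0.12 and −0.34 in control cells and −0.26, −0.10 and −0.31 in HOXB13 cells, all negative, and the block brought the edgeR adjusted p from 0.518 to 0.00359 and from 0.66 to 0.0293. It also passed in control cells in the fit that left out the libraries numbered 2. The J-domain partners DNAJB9 and DNAJB11, the secreted factors MANF and CRELD2, and SDF2L1, which works with DNAJB11, had log2 fold changes between −0.21 (DNAJB9) and 0.27 (SDF2L1) in control cells. In HOXB13 cells these 5 ranged from −0.24 (CRELD2) to 0.17 (SDF2L1), and none passed with or without the block.

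Of 7 genes of ER-associated degradation, HERPUD1 and SEL1L fell in control cells, and these and SYVN1 in HOXB13 cells, where 6.72% and 6.38% of all genes were lower. HERPUD1, a membrane scaffold of the HRD1 ubiquitin ligase complex, was at 41.1, 43.8 and 40.7 CPM in control cells in vehicle and at 30.8, 33.0 and 29.9 CPM in estradiol. HOXB13 cells had 49.98, 50.6 and 38.3 CPM and 33.4, 32.9 and 32.9 CPM. No estradiol library reached a vehicle library of its genotype. HERPUD1 fell by 25.5% in control cells (log2 fold change −0.42 ± 0.12; edgeR adjusted p = 0.022) and by 28.6% in HOXB13 cells (−0.49 ± 0.12; adjusted p = 0.0117). In control cells the adjusted p was 0.0550 without vehicle replicate 1, 0.0705 without estradiol replicate 1, 0.0501 without vehicle replicate 2 and 0.0978 without estradiol replicate 3. In HOXB13 cells it was 0.0702 without vehicle replicate 1.

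SEL1L holds HRD1 in the complex and links it to lumenal substrates. It stood at 521, 409.7 and 496 CPM in control cells in vehicle and at 380.2, 318 and 381 CPM in estradiol, with 536, 424 and 543 CPM and 369.5, 339.8 and 403 CPM in HOXB13 cells. Every estradiol library was below every vehicle library of its genotype. It fell by 24.4% and 25.9% (log2 fold changes −0.40 ± 0.13 and −0.43 ± 0.13), close to the threshold at edgeR adjusted p = 0.0473 and 0.0382. With the block the values were 4.9e-05 and 2.73e-05. In control cells the call was lost without any library except vehicle replicate 2, at adjusted p = 0.176 and 0.136 without vehicle replicates 1 and 3, and 0.0733, 0.186 and 0.0889 without estradiol replicates 1, 2 and 3. The HOXB13 call was lost likewise, at 0.155 and 0.128 without vehicle replicates 1 and 3, and 0.112, 0.127 and 0.0522 without estradiol replicates 1, 2 and 3.

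SYVN1 encodes HRD1 itself, the membrane-embedded ubiquitin ligase. HOXB13 cells held 124, 97.3 and 108 CPM in vehicle and 81.0, 66.7 and 68.4 CPM in estradiol. Control cells held 95.3, 92.3 and 88.1 CPM and 84.9, 71.9 and 77.3 CPM. The groups did not overlap in either genotype, and the gap was wider in HOXB13 cells. SYVN1 fell by 34.4% there (−0.61 ± 0.12; edgeR adjusted p = 0.003), and in control cells the change of −0.24 ± 0.12 passed only with the block (adjusted p = 0.2, and 0.0124 with it). EDEM1, a mannosidase-like factor that marks glycoproteins for removal, had 24.9, 10.6 and 15.4 CPM in control cells in vehicle and 14.6, 7.69 and 15.7 CPM in estradiol. In HOXB13 cells it had 20.4, 9.93 and 19.4 CPM and 14.4, 6.25 and 19.8 CPM. Its libraries overlapped widely and those numbered 2 were lowest in each group. Log2 ratios within equal numbers were −0.75, −0.44 and 0.02 in control cells, which do not share 1 sign, and the block gave an edgeR adjusted p of 0.0465 against 0.548 without it.

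DERL1 and DERL2, membrane proteins that help move substrates out of the ER, had log2 fold changes between −0.08 and 0.05 in the 2 genotypes. DERL3, the derlin of secretory tissues, was rare. It stood at 1.30, 1.44 and 1.41 CPM in control cells in vehicle and at 4.25, 2.79 and 2.28 CPM in estradiol, from 17 to 87 counts per library over the series. HOXB13 cells had 1.19, 1.90 and 0.889 CPM and 3.24, 2.19 and 1.08 CPM, which overlapped. The control groups did not overlap, and the log2 fold change of 1.16 ± 0.39 passed with the block (edgeR adjusted p = 0.0108) and not without it (0.0601).

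The stress sensors and their transcription factors went in both directions. CREB3L4, an ER-anchored factor of the CREB3 family that is released by cleavage, had the lowest log2 fold change of all members. Control cells held 270.3, 305 and 242 CPM in vehicle and 145, 174 and 144 CPM in estradiol. HOXB13 cells held 254, 301 and 204 CPM and 137, 172 and 139.7 CPM. The highest estradiol library of either genotype was below its lowest vehicle library. It fell by 43.2% in control cells (−0.82 ± 0.15; edgeR adjusted p = 0.00169) and by 40.9% in HOXB13 cells (−0.76 ± 0.15; adjusted p = 0.0033), and both calls held under each alternative run. Its relative CREB3L2, known for driving secretory capacity in cartilage, was at 62.7, 44.4 and 63.8 CPM in control cells in vehicle and 47.6, 31.6 and 46.8 CPM in estradiol. HOXB13 cells had 72.5, 42.7 and 74.1 CPM and 49.9, 34.2 and 48.9 CPM. Replicate 2 was lowest in each group and the groups overlapped. The log2 fold changes of −0.44 ± 0.23 and −0.51 ± 0.23 passed with the block (edgeR adjusted p = 0.000107 and 3.67e-05) and not without it (0.228 and 0.17). CREB3L1 had a mean of 0.284 CPM or less in 3 groups and 0.329 CPM in HOXB13 cells in vehicle, too few reads for a comparison.

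EIF2AK3 encodes PERK, the kinase that slows translation under stress. Control cells had 30.0, 23.6 and 26.8 CPM in vehicle and 22.7, 17.9 and 21.7 CPM in estradiol, and HOXB13 cells 28.6, 22.0 and 29.4 CPM and 22.1, 15.4 and 20.4 CPM. The control groups did not overlap, while in HOXB13 cells the lowest vehicle library, replicate 2, was just below the highest estradiol library. Its log2 fold changes of −0.37 ± 0.16 and −0.47 ± 0.16 passed with the block (edgeR adjusted p = 0.00447 and 0.000664) and not without it (0.155 and 0.0775). ERN1, which encodes IRE1, stood at 18.5, 10.97 and 13.6 CPM in control cells in vehicle and 13.6, 8.98 and 12.7 CPM in estradiol. HOXB13 cells stood at 15.1, 10.99 and 11.98 CPM and 11.9, 9.12 and 14.7 CPM, and the groups overlapped in both genotypes. ATF6 was at 95.2, 84.3 and 97.5 CPM and 88.8, 78.6 and 76.3 CPM in control cells, and at 86.7, 84.4 and 95.8 CPM and 83.7, 90.3 and 82.6 CPM in HOXB13 cells. Neither sensor passed in either genotype, with or without the block, and their 95% intervals were −0.77 to 0.20 and −0.58 to 0.40 for ERN1 and −0.40 to 0.03 and −0.27 to 0.16 for ATF6.

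XBP1, the factor that IRE1 activates, had positive log2 fold changes. It stood at 992, 1409.6 and 1187 CPM in control cells in vehicle and at 1452, 1636 and 1446 CPM in estradiol. HOXB13 cells held 1373, 1219.8 and 1195 CPM and 1544, 1499 and 1364 CPM. All control estradiol libraries were above all control vehicle libraries, and in HOXB13 cells the highest vehicle library, replicate 1, was above the lowest estradiol library. The log2 fold change of 0.34 ± 0.13 in control cells passed with the block (edgeR adjusted p = 0.00568) and not without it (0.0915). In HOXB13 cells it was 0.22 ± 0.13 (adjusted p = 0.307, and 0.08 with the block).

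Of 6 genes for translocation and signal peptide cleavage, SSR3 alone changed. It encodes a subunit of the translocon-associated protein complex, which sits beside SEC61 and helps certain chains to enter. Its level was 176, 188 and 182 CPM in control cells in vehicle and 271, 258 and 262 CPM in estradiol. In HOXB13 cells it was 203, 198 and 211 CPM in vehicle and 278, 258 and 286 CPM in estradiol. The 6 estradiol libraries were above all 6 vehicle libraries. SSR3 rose by 45.0% in control cells (0.54 ± 0.08; edgeR adjusted p = 0.000613) and by 34.4% in HOXB13 cells (0.43 ± 0.08; adjusted p = 0.00353), and both calls held under each alternative run. SSR1, another subunit of the same complex, had log2 fold changes of −0.11 ± 0.11 and −0.09 ± 0.11 that did not pass. The channel subunits SEC61A1 and SEC61B, the translocon-associated SERP1 and the signal peptidase subunit SPCS3 did not pass either, and lay between −0.08 (SEC61A1 in HOXB13 cells) and 0.29 (SEC61B in control cells).

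Among the COPII coat genes and KDEL receptors, SEC24D fell and its coat partner SEC23B did not pass. SEC24D is a cargo-selecting coat subunit. It was at 37.2, 34.8 and 37.1 CPM in control cells in vehicle and at 27.3, 22.4 and 24.2 CPM in estradiol. HOXB13 cells had 41.6, 34.2 and 44.2 CPM and 27.8, 24.4 and 28.3 CPM. The groups were apart in both genotypes. It fell by 32.2% in control cells (−0.56 ± 0.12; edgeR adjusted p = 0.00626) and by 32.9% in HOXB13 cells (−0.58 ± 0.12; adjusted p = 0.00612). SEC23B, the GTPase-activating partner of SEC24 proteins, had log2 fold changes of −0.05 ± 0.10 and −0.16 ± 0.10. The KDEL receptors return escaped chaperones from the Golgi to the ER. KDELR2 did not pass (−0.11 ± 0.09 and −0.10 ± 0.09). KDELR3 held 13.4, 13.4 and 13.5 CPM in HOXB13 cells in vehicle and 19.3, 18.6 and 14.3 CPM in estradiol, without overlap, and passed there with the block alone (0.37 ± 0.15; edgeR adjusted p = 0.133, and 0.0314 with the block).

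**Figure D3:**
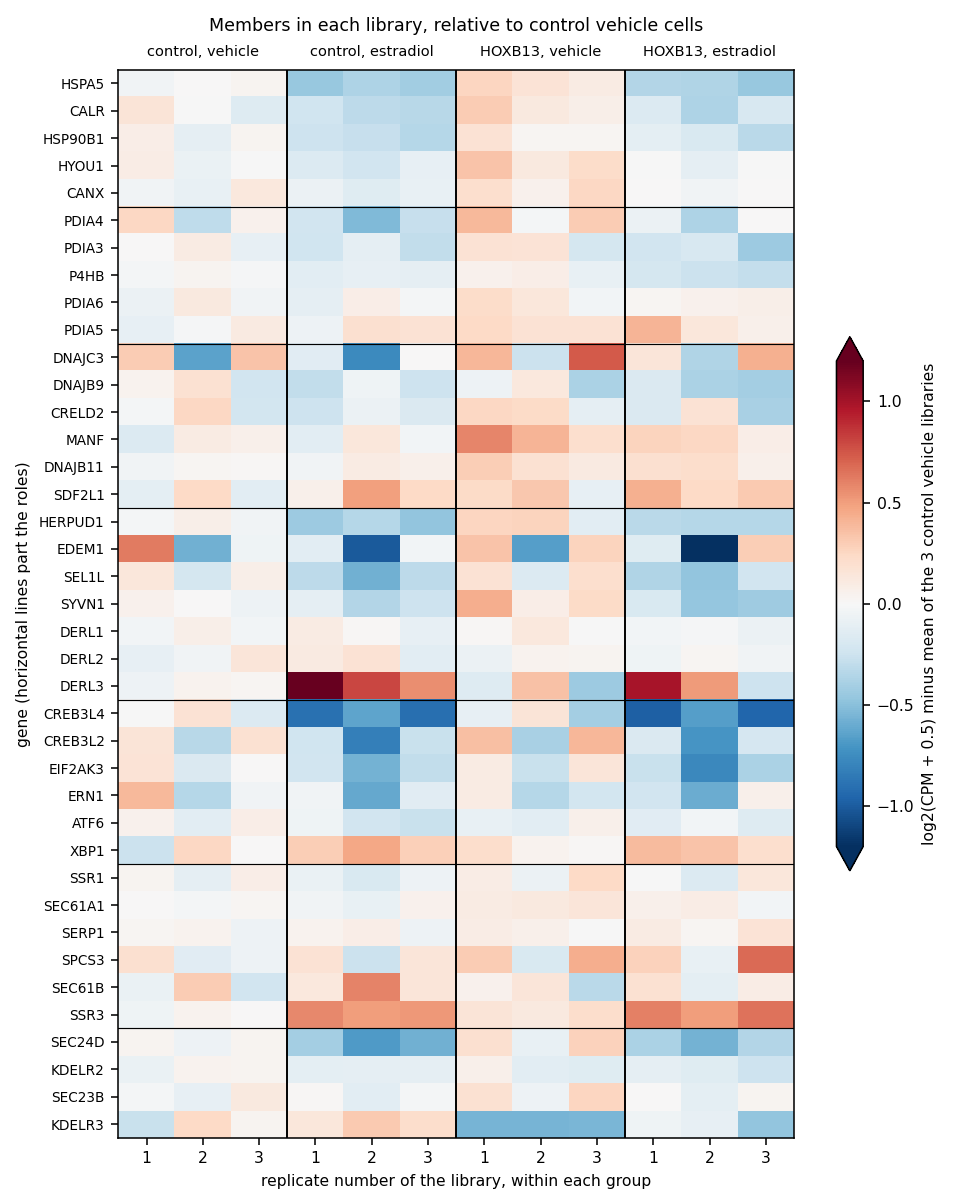
Level of the 39 tested members in each of the 12 libraries, as log2(CPM + 0.5) minus the mean of the 3 control vehicle libraries; columns are libraries by group and replicate number, rows are genes by role, and colours past the ends of the scale are shown at its ends. CREB3L4, HSPA5 and SEC24D are blue and SSR3 is red in all 6 estradiol columns, and the columns numbered 2 are the bluest of their group for DNAJC3, EDEM1 and CREB3L2.

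Ectopic HOXB13 in vehicle called no member by edgeR, where 3 of 14799 genes (0.0203%) were called. At an unadjusted p under 0.05 there were 5 of 39 members, against 559 of 14799 genes (3.78%). DESeq2 called 0 members, with 7 of 39 at an unadjusted p under 0.05 (against 4.05% of all genes). Limma-voom called 0, with 5 of 39 (against 3.75%). The log2 fold changes were positive for 28 of 39 members, with a median of 0.11 beside 0.00 over all genes. The 3 HOXB13 libraries lay above the 3 control libraries for 8 members (20.5%, against 3.59% of all genes): HSPA5, HYOU1, DNAJB11, MANF, PDIA5, SYVN1, SEC61A1 and SSR3. KDELR3 was the 1 member below (2.56%, against 3.54%). Beside this, HOXB13 vehicle replicate 1 had the highest summed level of the members of all libraries, 15053 CPM, and the other two of its group had 13742 and 13844 CPM. These comparisons share the vehicle libraries with the estradiol comparisons above. The list was chosen with earlier results known, so the shares of members are no test.

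MANF, a small secreted factor released under ER stress, was at 32.4, 38.8 and 37.8 CPM in control cells and at 54.5, 48.1 and 41.6 CPM in HOXB13 cells, both in vehicle. Its log2 fold change was 0.40 ± 0.13 (95% interval 0.13 to 0.67; edgeR adjusted p = 0.912, and 0.0763 with the block). HSPA5, with the vehicle values given above, differed by 0.17 ± 0.09 (adjusted p = 1), and HYOU1 by 0.23 ± 0.09 (adjusted p = 1). KDELR3 went the other way. It held 16.5, 23.8 and 20.4 CPM in control cells and 13.4, 13.4 and 13.5 CPM in HOXB13 cells, a log2 fold change of −0.59 ± 0.15 that passed with the block (edgeR adjusted p = 0.0401) and not without it (0.622). With the block it was the 1 member called of 39, where 0.216% of all genes were called lower.

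In estradiol, too, HOXB13 called no member without the block, where 2 genes (0.0135%) were called. DESeq2 and limma-voom called 0. At an unadjusted p under 0.05 each of the 3 tools had 1 member, KDELR3 by edgeR, which held 22.0, 25.0 and 23.2 CPM in control cells and 19.3, 18.6 and 14.3 CPM in HOXB13 cells (−0.43 ± 0.15; adjusted p = 0.999, and 0.156 with the block). The groups did not overlap. The members had a median log2 fold change of 0.05, with 26 of 39 positive, beside −0.01 over all genes. CANX was the 1 member whose HOXB13 libraries all lay above the control libraries (2.56%, against 4.51% of all genes), and KDELR3 and P4HB were the 2 below (5.13%, against 5.37%). With the block DNAJC3 passed (0.37 ± 0.29 without it; edgeR adjusted p = 0.999, and 0.0285 with it), where 0.142% of all genes were called higher. Its estradiol values are those given above, and its log2 ratios within equal numbers were 0.28, 0.40 and 0.43.

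**Figure D4:**
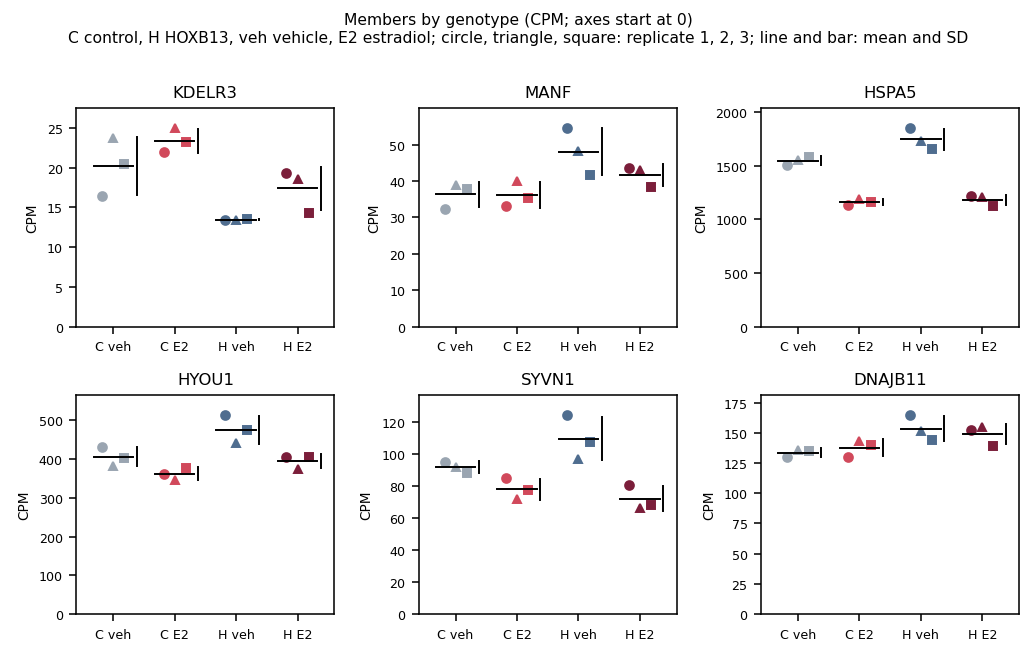
Level of 6 members in each library (CPM, linear axes from 0), with groups, symbols, lines and bars as in the plot of 9 members. KDELR3 is lower in HOXB13 than in control cells in vehicle, the other 5 genes have all 3 HOXB13 vehicle libraries above the 3 control vehicle libraries, and none of these differences passed without the replicate block.

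The difference between the 2 estradiol responses was tested as an interaction. No member and 0 of 14799 genes (0%) passed by edgeR, DESeq2 or limma-voom, with 219, 239 and 226 genes at an unadjusted p under 0.05. Among members that unadjusted level was reached by SYVN1 alone, whose response was lower in HOXB13 cells by −0.37 ± 0.16 (95% interval −0.72 to −0.02; unadjusted p = 0.0385, edgeR adjusted p = 1). The 95% interval reached a median of 0.36 to either side over the 39 members, and for 37 of them the interval lay within −1 to 1. For HSPA5 the difference was −0.15 ± 0.13 (−0.43 to 0.13), for CALR −0.11 ± 0.16 (−0.44 to 0.22), for CREB3L4 0.06 ± 0.21 (−0.39 to 0.50) and for SSR3 −0.11 ± 0.12 (−0.36 to 0.14). No difference between the genotypes' responses was therefore shown for CALR or SYVN1, whose calls without the block were made in HOXB13 cells alone.

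Other genes of the same processes, 123 tested in 7 lists, gave 13 higher (10.6%, against 8.65% of all genes) and 4 lower calls (3.25%, against 6.72%) in control cells. In HOXB13 cells they gave 7 higher (5.69%, against 7.22%) and 5 lower (4.07%, against 6.38%). With the replicate block the counts were 26 higher (21.1%, against 17.5%) and 22 lower (17.9%, against 16.5%) in control cells, and 25 higher (20.3%, against 15.5%) and 22 lower (17.9%, against 15%) in HOXB13 cells. Of 21 further genes for folding, disulfide formation and glycan control, 1 passed in each genotype without the block. In control cells ERO1L, an oxidase that accepts electrons from disulfide isomerases, rose (log2 fold change 0.41 ± 0.13; edgeR adjusted p = 0.0443). In HOXB13 cells its relative ERO1LB fell (−0.64 ± 0.20; edgeR adjusted p = 0.0483). Both means moved the same way in the other genotype, without passing there. ERO1L went from 60.1 to 71.7 CPM in HOXB13 cells, and ERO1LB from 21.9 to 14.3 CPM in control cells. With the block 3 of the 21 were higher and 3 lower in control cells, and 3 and 2 in HOXB13 cells. Of 17 further degradation genes none passed in either genotype without the block, and with it 4 were higher and 3 lower in control cells and 3 and 4 in HOXB13 cells. The lowest log2 fold changes were those of UBE2J1 (−0.33; edgeR adjusted p = 0.0779, and 0.00189 with the block) in control cells and EDEM2 (−0.30; 0.0912, and 0.0195 with the block) in HOXB13 cells. Of 25 genes for translocation and glycan transfer, SEC61A2 rose in control cells (0.50 ± 0.15; adjusted p = 0.0393) and none passed in HOXB13 cells, where the ends were DDOST (−0.25; edgeR adjusted p = 0.0851, and 0.00575 with the block) and SRP19 (0.36; 0.125, and 0.027 with the block). With the block 3 of those 25 were higher and 1 lower in each genotype. Of 20 genes for transport between ER and Golgi, with the block 9 fell in control cells, and 6 fell and 1 rose in HOXB13 cells. Without the block 2 fell in each genotype. The 2 were the COPI coat subunits COPB1 (−0.33 ± 0.09; edgeR adjusted p = 0.0166) and COPB2 (−0.32 ± 0.08; adjusted p = 0.0157) in control cells, and COPB1 (−0.31 ± 0.09; adjusted p = 0.0263) and the COPII cage subunit SEC31A (−0.34 ± 0.10; adjusted p = 0.0311) in HOXB13 cells. Of 9 further genes of the signalling itself, ATF6B, the close relative of ATF6, fell in both genotypes (−0.38 ± 0.09 and −0.46 ± 0.09; edgeR adjusted p = 0.0102 and 0.00384). The IRE1 adaptor TRAF2 rose in control cells (0.47 ± 0.11; edgeR adjusted p = 0.0106). With the block 1 of the 9 was higher and 3 lower in each genotype.

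Activity of PERK and ATF4 was not measured, and 15 genes listed as their outputs are given here. Of these 15, 5 were higher and 1 lower in control cells and 4 and 1 in HOXB13 cells, at medians of 0.21 and 0.25. With the block these counts were 7 and 2, and 6 and 2. The secreted glycoprotein gene STC2 rose by a log2 fold change of 2.38 ± 0.19 in control cells (edgeR adjusted p = 3.33e-06) and 1.94 ± 0.19 in HOXB13 cells (adjusted p = 2.29e-05). PSAT1, of serine synthesis, rose by 1.02 ± 0.12 and 1.22 ± 0.12 (adjusted p = 6.49e-05 and 2.29e-05). CHAC1, which degrades glutathione, rose by 1.54 ± 0.28 and 1.62 ± 0.28 (adjusted p = 0.00193 and 0.00175). DDIT4, an inhibitor of mTORC1 signalling, changed by −1.45 ± 0.16 and −1.36 ± 0.16 (adjusted p = 3.84e-05 and 9.74e-05). Of 16 cytosolic and mitochondrial heat shock genes, 5 rose and 0 fell in control cells, and 3 rose and 0 fell in HOXB13 cells. Beside this list and the PERK and ATF4 outputs, 8.65% of all genes rose and 6.72% fell in control cells. In HOXB13 cells 7.22% rose and 6.38% fell. With the block 8 of the 16 rose and 1 fell in control cells, where 17.5% of all genes rose and 16.5% fell. In HOXB13 cells 8 rose and 4 fell with it, where 15.5% of all genes rose and 15% fell. The mitochondrial chaperonin HSPD1 rose by 0.62 ± 0.08 and 0.63 ± 0.08 (edgeR adjusted p = 0.000163 and 0.000207), the Hsp70 cochaperone DNAJA1 by 0.42 ± 0.13 and 0.45 ± 0.13 (adjusted p = 0.0391 and 0.0293), BAG3 by 0.40 ± 0.11 in control cells (adjusted p = 0.0204) and HSPE1, the partner of HSPD1, by 0.66 ± 0.19 in HOXB13 cells (adjusted p = 0.0357). These lists were drawn up with earlier results of these data known. In the 2 comparisons of genotype none of the 123 genes passed by edgeR without the block. In vehicle the lowest log2 fold changes of the 7 lists were those of FKBP11 (−0.37, folding), RNF139 (−0.11, degradation), SRP19 (−0.20, translocation), SEC23A (−0.12, transport), DNAJC12 (−0.22, signalling), DDIT3 (−0.37, PERK outputs) and DNAJB4 (−0.41, heat shock). The highest, in the same order, were those of ERO1L (0.24), EDEM2 (0.20), SEC61A2 (0.38), KDELR1 (0.12), PPP1R15B (0.14), VLDLR (0.34) and BAG3 (0.11). In estradiol the lowest were ERP29 (−0.24), RNF139 (−0.19), SRP14 (−0.23), ARFGAP3 (−0.05), DNAJC12 (−0.43), STC2 (−0.30) and HSPB1 (−0.35; edgeR adjusted p = 0.999, and 0.0471 with the block), and the highest FKBP11 (0.68), UBE2J1 (0.21), SEC11C (0.21), SEC24B (0.17), MBTPS1 (0.12), VLDLR (0.44) and HSPA4 (0.13).

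**Figure D5:**
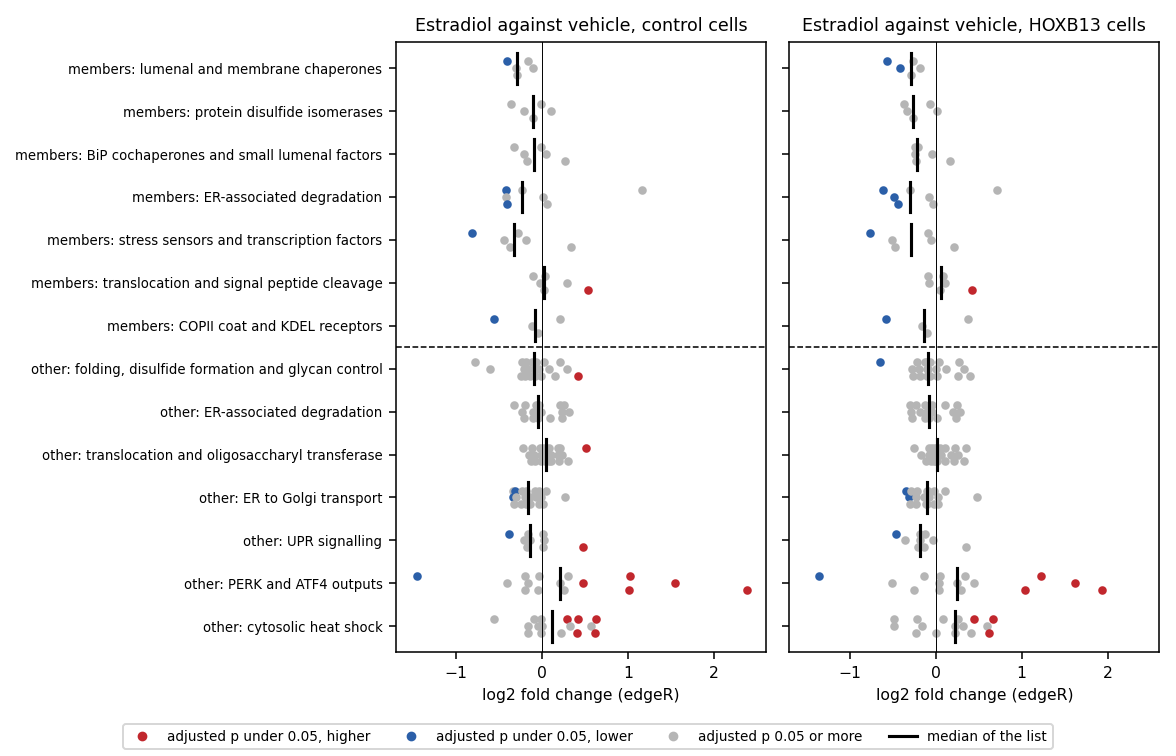
Log2 fold change with estradiol for the 39 members by role (above the dashed line) and for 123 other tested genes in 7 lists (below it), in control cells (left) and HOXB13 cells (right); each point is a gene, red and blue points passed an adjusted p of 0.05, and bars are list medians. The medians of the chaperone and degradation roles lie left of 0, and those of the PERK and ATF4 outputs and of the heat shock genes right of 0.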

How the data were processed

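RNA was sequenced from 12 T47D libraries. The authors deposited raw counts per gene symbol, 1 column per library. FastQC, STAR, Picard, HTSeq and the builds GRCh37 and hg19 are named in the submitters' processing notes, and the sources used here give no version, annotation or strand setting, so reads of antisense genes cannot be told apart. Groups came from the sample titles.

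From the counts, genes were kept by filterByExpr (minimum count 10, minimum total count 15), scaled by TMM and tested with edgeR 4.0.16 in R 4.3.3 (group means over 12 libraries, robust quasi-likelihood F test, Benjamini-Hochberg over 14799 genes, threshold 0.05). The scripts were tested on simulated data. CPM uses TMM-scaled library sizes, and log2 ratios within equal replicate numbers use CPM + 0.5. Alternatives were DESeq2 1.42.0, limma-voom (limma 3.58.1), RLE scaling, other filters, the replicate block, the compared groups alone and each library left out. With 3 libraries a group the smallest exact permutation p is 0.1, so no such test was run.

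Across genes, libraries of equal number were compared by their deviations from the group mean, which correlated at 0.132 to 0.457 (estradiol, control cells), 0.184 to 0.354 (estradiol, HOXB13 cells), 0.125 to 0.409 (HOXB13, vehicle) and 0.123 to 0.311 (HOXB13, estradiol), all above 0.1. The interaction, with 18 such pairs, fell short (lowest 0.0926), and its block values are not given beside the result.

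Members and lists were chosen with earlier results of these data known. Values were named for all members, for HOXB13 and GREB1, and, from each other list in each comparison of 2 groups, for up to 3 genes per direction with the lowest adjusted p, or the ends of the fold change where none passed. The upper end for the degradation list with estradiol is not reported here. Library values were printed for members past the threshold with or without the block and for the 3 sensors, XBP1 and HSPA5. Promoter sequences are RefSeq's (GRCh38.p14), and exon lengths are the union of all exons of a gene in GENCODE 29.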

Additional observations from a re-analysis of the deposited data

How the results depend on the processing

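With estradiol in control cells, where 6 members were called, 10 were called with no low-count filter (3 higher, 7 lower; 25% of the members, against 10.2% of all genes), 17 with the replicate block (43.6%, against 34%) and 13 without the 4 libraries numbered 2 (33.3%, against 24%), an alternative chosen after seeing the data. Leaving out 1 library gave 4 to 8 (10.3% to 20.5% of the members, against 9.76% to 18.2% of all genes). With estradiol in HOXB13 cells, where 8 were called, DESeq2 called 13 (33.3%, against 17.2%), the replicate block 17 (43.6%, against 30.5%) and the fit without the libraries numbered 2 called 14 (35.9%, against 22.1%). Leaving out 1 library gave 5 to 10 (12.8% to 25.6%, against 8.10% to 12.4% of all genes), the 5 without HOXB13 vehicle replicate 1. The replicate block called 1 member for HOXB13 in vehicle and 1 in estradiol, and the counts stayed at 0 under the other alternatives. The interaction had 0 members in every fit, and 585 genes at an unadjusted p under 0.05 with the block, of which 0 passed. The cause of these moves was not tested. Of members called with the block and not without it, DESeq2 also called HSP90B1, CALR and DERL3 in control cells and HSP90B1, HYOU1, P4HB, PDIA3 and EIF2AK3 in HOXB13 cells. Leaving out the libraries numbered 2 also called HSP90B1, PDIA4, DNAJC3, DERL3, EIF2AK3, XBP1 and CREB3L2 in control cells, and HSP90B1, HYOU1, PDIA3, PDIA4, EIF2AK3 and CREB3L2 in HOXB13 cells. Of 14 calls of a member in a comparison, 9 held under all alternatives (HSPA5, CREB3L4, SEC24D and SSR3 in both genotypes, SYVN1 in HOXB13 cells). With only the compared groups in the fit, SEL1L was at adjusted p = 0.0682 in control and 0.0518 in HOXB13 cells, and CALR at 0.0515 in HOXB13 cells. No direction reversed. CREB3L1 and DERL3, at 4 and 33 counts in their median library, are limited by depth.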
